A study of Mus musculus with 21 samples.

Results

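The genes examined here were the JAK kinases and the SOCS-family inhibitors that restrain them. They were chosen by symbol from the first column of the count tables: Jak1, Jak2, Jak3 and Tyk2, and Socs1, Socs2, Socs3, Socs5, Socs7 and Cish, 10 of the 24391 gene symbols counted. RNA from brain, liver and skin was sequenced in newborn (P0) mice of the C57BL/6 strain, 2 Jak1 KI mice and 5 wild-type (WT) mice, with 1 library per mouse and tissue and 21 libraries in all. The KI mice were heterozygous for an edited Jak1 allele, Jak1 H595D/+;I596I/+;Y597Y/+ (genotype label Jak1 KI +/-), which carries the H595D substitution and the silent changes I596I and Y597Y. WT mice carried none of these changes, so H595D and the silent changes cannot be told apart here. The study also made mice with the silent changes only and reports no abnormal phenotype in them, but none was sequenced here. It describes the KI line as bred through a mosaic male that arose from editing of zygotes. The labels give no treatment for either group. Sexes and litters were not given, and Y-linked genes were high in KI mouse 2 and WT mouse 3.

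JAK kinases are tyrosine kinases bound to the inner part of cytokine receptors. When a cytokine brings receptor chains together, the JAKs phosphorylate each other, the receptor and the STAT transcription factors, which then enter the nucleus and switch on target genes. Several SOCS genes and Cish are such targets: their proteins bind the receptor or the JAK through an SH2 domain and recruit a ubiquitin ligase through the SOCS box, which closes a negative feedback loop. In the liver this pathway carries the acute-phase response to interleukin 6 and the response to growth hormone.

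The edited codon of Jak1, which spans 100824972 to 100937887 of chromosome 4 (minus strand, NCBIM37, which is mm9), lies in exon 13 of 25, at chr4:100837174-100837176. It is shown because it is the genetic difference between the groups. The window chr4:100837150-100837194 of the minus strand is given as the reference, unedited sequence, with codon 595 in capitals, a histidine codon that H595D replaces. The isoleucine and tyrosine codons of I596I and Y597Y follow it directly.
Jak1 codon 595 window: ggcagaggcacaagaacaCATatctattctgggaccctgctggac

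Promoter sequences from RefSeq (GRCm38.p6, short windows around the start of transcription) were matched for 7 of the 10 genes, all except Socs2, Socs5 and Socs7. They were searched on both strands for the STAT motif TTCNNNGAA, called GAS and present in 8.3% of 32851 promoters, for the wider form TTCNNNNGAA (6.95%), and for the interferon motif GAAANNGAAA, called ISRE (3.44%). The promoters of Socs3, Socs1 and Cish held matches, given in capitals because these genes are the feedback arm of the pathway, and the windows of the 4 JAK genes held none of the 3 motifs. The Socs3 match lay at positions -154 to -146 from the start site, in chr11:117969492-117969540 of the minus strand. The Socs1 matches overlapped each other, at -83 to -74 and -77 to -68, in chr16:10785589-10785634 of the minus strand. The 2 Cish matches lay just past the start site, at 1 to 9 and 12 to 20, in chr9:107296654-107296683 of the plus strand. A match describes letters and does not show binding.
Socs3 GAS: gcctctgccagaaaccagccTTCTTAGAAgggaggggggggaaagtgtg
Socs1 ISRE: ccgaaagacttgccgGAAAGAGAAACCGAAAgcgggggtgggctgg
Cish GAS: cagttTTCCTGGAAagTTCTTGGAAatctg

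Libraries held 26549326 to 38388133 counts on genes, and the 10 genes were covered by 47 counts (Socs1 in liver WT 3) to 7324 counts (Jak1 in liver KI 2) per library. All 10 passed the filter on low counts in every tissue. Levels are given as normalised CPM, counts relative to the normalised library total, and "called" means an adjusted p under 0.1 in the quasi-likelihood test of edgeR, adjusted over all genes tested. Marker genes for neurons, hepatocytes, and keratinocytes and fibroblasts were highest in brain, liver and skin, respectively. Keratinocyte marker RNA varied widely between the skins: 5 markers summed to 740 CPM in KI 2 and 11777 CPM in KI 1, and to 1259 to 14356 CPM in WT skin. The study's methods also give a lower RNA integrity for skin than for liver, and name none for brain. Brain WT 5, the smallest library, stood apart from the other WT brains in several of the genes below and over all genes. The chi-square per degree of freedom between replicate counts was 176 to 208 for pairs with WT 5. Among the other WT brains it was 26.1 to 42.1.

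Among the kinases, all 4 were lower in WT brain than in WT liver, and 3 of the 4 were lower in brain than in skin. Tyk2, which pairs with JAK1 or JAK2 at interferon and interleukin 12 receptors, differed most between tissues. Its level was 11.7, 12.5, 12.9, 13.4 and 7.73 CPM in WT brains 1 to 5, 46.5, 46.6, 55.4, 42.4 and 49.8 CPM in the livers, and 35.3, 30.01, 32.8, 23.2 and 35.5 CPM in the skins. The ranges of the 3 tissues did not overlap. On the log2 scale brain minus liver was -2.07 ± 0.16 (SE, edgeR adjusted p = 4.5e-09), and brain minus skin was -1.44 ± 0.16 (adjusted p = 4.26e-07).

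Jak3, the kinase that works with the common gamma chain in lymphoid cells, ranged from 9.53 to 11.4 CPM in WT brain, 27.4 to 39.5 CPM in liver and 16.4 to 33.8 CPM in skin. Brain lay below both other tissues without overlap, by -1.59 ± 0.17 against liver and -1.31 ± 0.17 against skin (log2, SE), whereas the liver and skin ranges overlapped and their difference was not called (0.28, 95% interval -0.07 to 0.63). Jak1, the partner of most cytokine receptors, read 131, 147, 153, 132 and 93.8 CPM in WT brain, 235, 229, 236, 242 and 206 CPM in liver and 152, 155, 170, 172 and 149 CPM in skin. Every liver lay above every brain and skin, and the brain and skin ranges overlapped at their edges. Brain minus liver was -0.83 ± 0.12 (edgeR adjusted p = 1.01e-05) and liver minus skin 0.54 ± 0.12 (adjusted p = 0.000981). The smaller brain minus skin difference, -0.29 ± 0.12 (adjusted p = 0.0374), was lost with the size factors of DESeq2 (adjusted p = 0.118) and without WT mouse 4 (adjusted p = 0.121). Jak2, the kinase of the erythropoietin, growth hormone and colony-stimulating factor receptors, varied least of the 4, with ranges of 56.4 to 69.4 CPM in brain, 69.4 to 91.3 CPM in liver and 54.1 to 65.5 CPM in skin. It was higher in liver than elsewhere, at -0.32 ± 0.10 for brain minus liver and 0.46 ± 0.10 for liver minus skin (log2, SE), and was not called between brain and skin (0.13, 95% interval -0.08 to 0.35), although the size factors of DESeq2 gave a call there (adjusted p = 0.0679).

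The inhibitors fell into groups by tissue. Socs5, linked to EGF and interleukin 4 receptor signalling, and Socs7, linked to insulin signalling, were the only members higher in brain than in liver. Socs7 read 99.2, 102, 103, 91.6 and 57.8 CPM in WT brain, 22.7, 21.9, 25.1, 30.04 and 25.1 CPM in liver and 25.8, 21.03, 31.8, 31.7 and 29.4 CPM in skin, so every brain, WT 5 included, lay above every other library. Brain exceeded liver by 1.84 ± 0.17 and skin by 1.68 ± 0.17 on the log2 scale (SE, edgeR adjusted p = 4.42e-08 and 1.62e-07). Socs5 ranged from 47.3 to 54.1 CPM in brain, 10.1 to 19.3 CPM in liver and 30.98 to 49.3 CPM in skin. Liver was apart from both, at 1.90 ± 0.18 for brain minus liver and -1.56 ± 0.18 for liver minus skin, and the brain and skin ranges overlapped. Their difference of 0.33 ± 0.17 passed at an adjusted p of 0.0875 and was lost without WT mouse 1, 2 or 4 (adjusted p = 0.195, 0.264 and 0.153).

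Socs3 and Cish were lowest in brain, Socs1 was highest in skin and Socs2 was highest in liver. Socs3, the inhibitor of receptors that use the gp130 chain, read 6.18, 6.04, 3.17, 4.54 and 6.35 CPM in WT brain, 36.6, 28.5, 19.1, 33.2 and 12.6 CPM in liver, and 39.9, 52.8, 19.2, 23.2 and 19.5 CPM in skin. Brain did not overlap with either tissue and lay lower by -2.34 ± 0.35 against liver and -2.57 ± 0.35 against skin (log2, SE, edgeR adjusted p = 1.21e-05 and 5.79e-06). Liver and skin overlapped and were not called apart (-0.23, 95% interval -0.93 to 0.47). Socs1, an inhibitor of interferon receptor signalling that acts directly on the kinases, had WT levels of 2.36, 3.38, 2.84, 2.47 and 3.41 CPM in brain, 3.19, 3.39, 2.24, 3.38 and 4.34 CPM in liver, and 13.5, 12.7, 9.20, 8.21 and 15.1 CPM in skin. Skin exceeded the others without overlap, at -2.03 ± 0.23 for brain minus skin and -1.81 ± 0.23 for liver minus skin (log2, SE), and brain and liver were not called apart (-0.23, 95% interval -0.71 to 0.26). Cish and Socs2 are both targets of STAT5. Cish ranged from 9.36 to 13.4 CPM in brain, 49.8 to 60.1 CPM in liver and 23.9 to 65.1 CPM in skin, with brain lower by -2.39 ± 0.22 against liver and -1.89 ± 0.21 against skin. The liver and skin ranges of Cish overlapped, and their difference of 0.50 ± 0.20 (edgeR adjusted p = 0.0409) was lost without WT mouse 1, 2, 4 or 5 (adjusted p = 0.116 to 0.157). Socs2, the inhibitor of growth hormone receptor signalling, ranged from 52.3 to 108 CPM in liver, above 27.4 to 48.1 CPM in brain and 25.3 to 39.2 CPM in skin, at -1.15 ± 0.22 for brain minus liver and 1.20 ± 0.22 for liver minus skin.

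In counts, 2 members were called higher and 7 lower in brain than in liver, 2 higher and 6 lower in brain than in skin, and 5 higher and 2 lower in liver than in skin. Most genes differ between these tissues: of the 17071 genes tested 83.4% were called between brain and liver (43.3% higher, 40.2% lower), 79.4% between brain and skin (39.1% and 40.3%) and 72.3% between liver and skin (32.5% and 39.8%), so these counts describe the members and do not set them apart. The 3 comparisons share WT libraries.

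**Figure D1:**
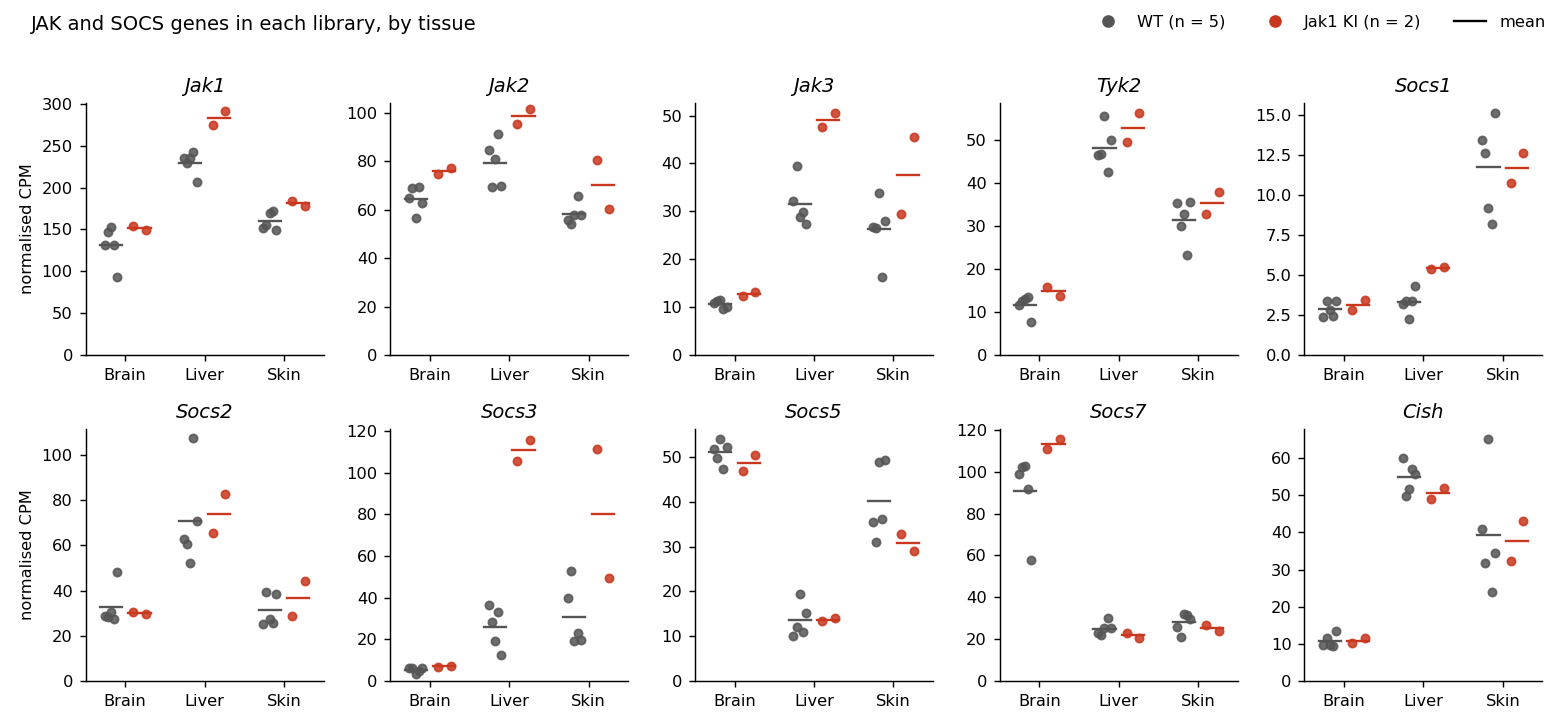
Normalised CPM (vertical axis from 0, a separate scale in each panel) of each of the 10 genes in brain, liver and skin. Each point is 1 library, grey for WT (n = 5) and red for Jak1 KI (n = 2), with bars at the means; Socs3 in liver shows both KI points, 106 and 116 CPM, far above the WT points of 12.6 to 36.6 CPM.

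To compare genes with each other, levels were divided by the summed exon length of the gene. Jak1 then had the highest mean in all 3 WT tissues, with 18.2 ± 3.17, 31.8 ± 1.93 and 22.1 ± 1.46 CPM per kb in brain, liver and skin (SD, n = 5), and made up 50.8%, 49.8% and 48.7% of the summed JAK level per length. In liver and skin its range was apart from that of the next gene, Jak2, and in brain the ranges overlapped. In brain Jak2 (12.8 CPM per kb), Socs7 (12.5) and Socs5 (11.6) followed, with overlapping ranges. A gap then separated them from Socs2 (3.43), Tyk2 (2.53), Socs1 (2.37), Jak3 (1.99), Socs3 (1.82) and Cish (1.67), whose neighbouring ranges all overlapped.

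In WT liver Jak2 (15.8 CPM per kb) was apart from both of its neighbours, followed by Tyk2 (10.4), Socs3 (9.001), Cish (8.55), Socs2 (7.44) and Jak3 (5.88), each overlapping with the next. Socs7 (3.44), Socs5 (3.07) and Socs1 (2.71) formed a lower group, apart from Jak3. In WT skin no neighbours after Jak1 were apart, from Jak2 (11.6), Socs3 (10.7), Socs1 (9.62) and Socs5 (9.13) through Tyk2 (6.80), Cish (6.11), Jak3 (4.90) and Socs7 (3.85) to Socs2 (3.27). With the length of the longest transcript in place of all exons, Socs2 more than doubled. It reached 7.71, 16.7 and 7.35 CPM per kb in brain, liver and skin. Its place in the order therefore depends on which transcript is used, and other places moved too. In liver Socs2 (16.7 ± 5.08, SD) passed Jak2 (15.8 ± 1.90), and Cish (11.7) passed Tyk2 (10.4) and Socs3 (10.2). Socs7 (12.9) passed Jak2 (12.8) in brain, and Socs3 (12.1) passed Jak2 (11.6) in skin. Jak1 kept the highest mean in each tissue. Family shares, here and for the liver below, used the length of all exons only.

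**Figure D2:**
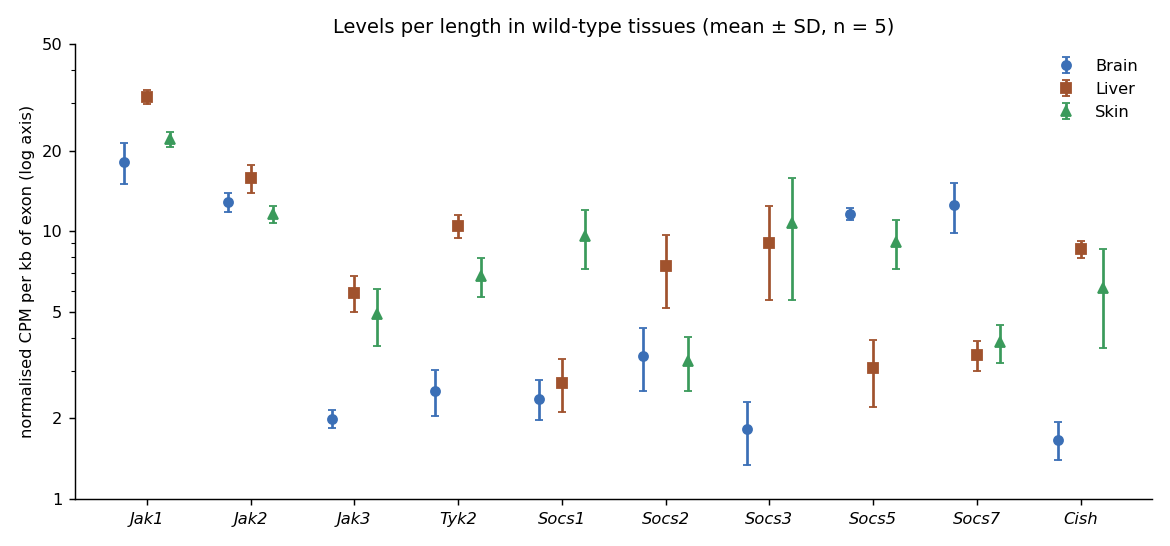
Levels of the 10 genes in WT tissues as normalised CPM per kb of exon (log axis), mean ± SD over 5 mice, with circles for brain, squares for liver and triangles for skin. Jak1 has the highest mean in each tissue, Socs7 and Socs5 are highest in brain, and Socs1 is highest in skin.

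The comparison of genotypes inside a tissue asks whether the edited allele goes with other levels of the kinases and their inhibitors. In the liver 2 of the 10 members were called, Socs3 and Jak3, both higher in KI, and none was lower. In the same comparison 5.57% of the 14966 genes tested were called, and 3.89% were called higher. Socs3 read 106 and 116 CPM in KI livers 1 and 2, and 36.6, 28.5, 19.1, 33.2 and 12.6 CPM in WT livers 1 to 5. Both KI livers lay far above the highest WT liver, at close to the same level, while the WT livers themselves spread over a wide range. The log2 difference was 2.09 ± 0.31 (SE, 95% interval 1.38 to 2.80, edgeR adjusted p = 0.012), or 4.25-fold. It stayed between 1.78 and 2.24 in 15 alternative settings, and was called in 14 of them. Without KI mouse 2, with a lone KI liver left, it was 2.02 and was not called (adjusted p = 0.149).

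Jak3 read 47.6 and 50.6 CPM in KI livers and 32.1, 39.5, 28.7, 29.8 and 27.4 CPM in WT livers. Neither KI liver overlapped with the WT livers, of which WT 2 was nearest, and the log2 difference was 0.64 ± 0.14 (SE, 95% interval 0.32 to 0.96, edgeR adjusted p = 0.0502). The call was lost without either KI mouse (adjusted p = 0.192 and 0.348), with all 21 libraries in 1 fit (0.242), with Y-linked expression as a covariate (0.101) and at a threshold of 0.05. Leukocyte markers were also higher in KI liver, where all 6 on the list were called. Their sum was 1245 and 1398 CPM in KI against 749 to 913 CPM in WT. Among WT livers the sum and Jak3 were not ordered alike: WT 5 had the highest sum, 913 CPM, and the lowest Jak3, 27.4 CPM. Of other marker lists in the liver, 4 of 5 macrophage, 3 of 5 B-lineage, 2 of 6 neutrophil, 1 of 5 megakaryocyte and 0 of 4 T-cell genes were called higher. The T-cell sum was low, yet it did not overlap either, at 17.2 to 17.4 CPM in KI and 10.2 to 12.3 CPM in WT. More leukocytes and more RNA per cell cannot be told apart in bulk tissue, and the part of leukocyte content in the Jak3 and Socs3 values was not tested. The sum of 6 hepatocyte markers was 181723 and 185687 CPM in KI livers and 186489 to 231332 CPM in WT livers, and none of the 6 was called.

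Jak1 itself, the edited gene, read 275 and 291 CPM in KI livers and 235, 229, 236, 242 and 206 CPM in WT livers. KI lay above WT without overlap, yet the difference of 0.30 ± 0.09 on the log2 scale (SE, 95% interval 0.10 to 0.51) was not called (edgeR adjusted p = 0.125). The Wald test of DESeq2 (adjusted p = 0.0419) and the fit without WT 4 (0.0854) did call it. These counts do not separate the edited from the unedited allele. Jak2, with 95.5 and 102 CPM in KI and 84.8, 69.4, 80.9, 91.3 and 69.9 CPM in WT livers, also lay above WT without overlap and was not called (0.32 ± 0.12, adjusted p = 0.219), except without WT 4 (0.0831). Tyk2 overlapped between the groups, with 49.4 and 56.1 CPM in KI within or just above the WT range of 42.4 to 55.4 CPM (0.13, 95% interval -0.13 to 0.39).

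Of the other inhibitors in the liver, Socs1 read 5.36 and 5.53 CPM in KI and 3.19, 3.39, 2.24, 3.38 and 4.34 CPM in WT. It lay above WT without overlap, on 123 to 139 counts per KI library, and was not called (0.72 ± 0.26 on the log2 scale, 95% interval 0.13 to 1.297, edgeR adjusted p = 0.195). Cish and Socs2, named above as STAT5 targets, overlapped between the groups and were not called. The study reports higher phosphorylation of STAT5 protein in KI liver, which the RNA of these genes does not measure. Cish read 49.0 and 52.1 CPM in KI against 49.8 to 60.1 CPM in WT (-0.12, 95% interval -0.34 to 0.10). Socs2 read 65.5 and 82.6 CPM against 52.3 to 108 CPM (0.06, 95% interval -0.49 to 0.62). Socs5 (0.02, 95% interval -0.53 to 0.57) and Socs7 (-0.19, 95% interval -0.52 to 0.13) overlapped as well. In all, 5 of the 10 members (Jak1, Jak2, Jak3, Socs1 and Socs3) exceeded every WT liver in both KI livers, a position held by 13% of the genes tested, and no member lay below all WT livers, as 11.3% of genes did.

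**Figure D3:**
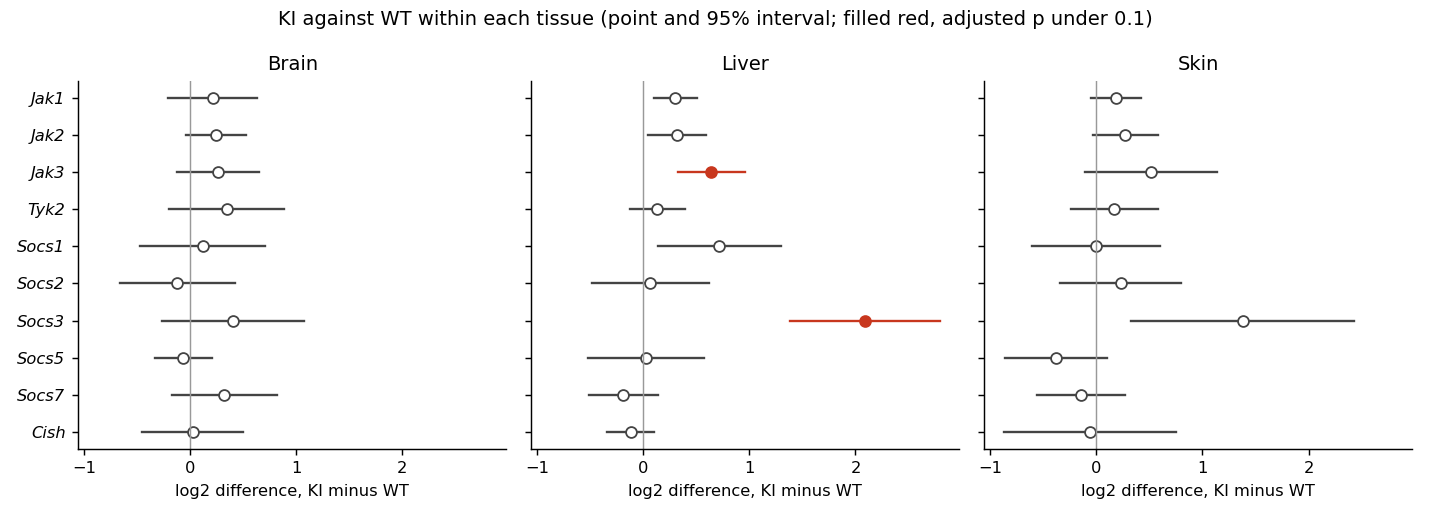
Log2 difference, KI minus WT, of the 10 genes in brain, liver and skin (horizontal axis), with 95% intervals of the edgeR fit over 2 KI and 5 WT mice. Filled red points are called at an adjusted p under 0.1: only Jak3 (0.64) and Socs3 (2.09) in the liver are, while the Socs3 interval in skin, 0.33 to 2.43, lies above 0 without a call.

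The make-up of the SOCS family in the liver was also described by shares, without a test. Per length, Socs3 made up 59.4% of the summed level of the 6 inhibitors in both KI livers (59.3 to 59.4%), and 25.8% ± 7.92 (SD, n = 5, range 14.1 to 34.5%) in WT livers. Cish made up 12.04 to 12.4% in KI and 21.7 to 28.1% in WT, and Socs7 4.22 to 5.15% and 8.53 to 11.6%. The shares sum to the whole, so a higher share of Socs3 lowers the others, and the levels of Cish and Socs7 themselves were not called. Within the JAK family shares moved little: Jak1 held 49.1 to 49.6% in KI and 48.9 to 50.5% in WT livers, and Jak3 11.5 to 11.6% and 8.12 to 11.7%.

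**Figure D4:**
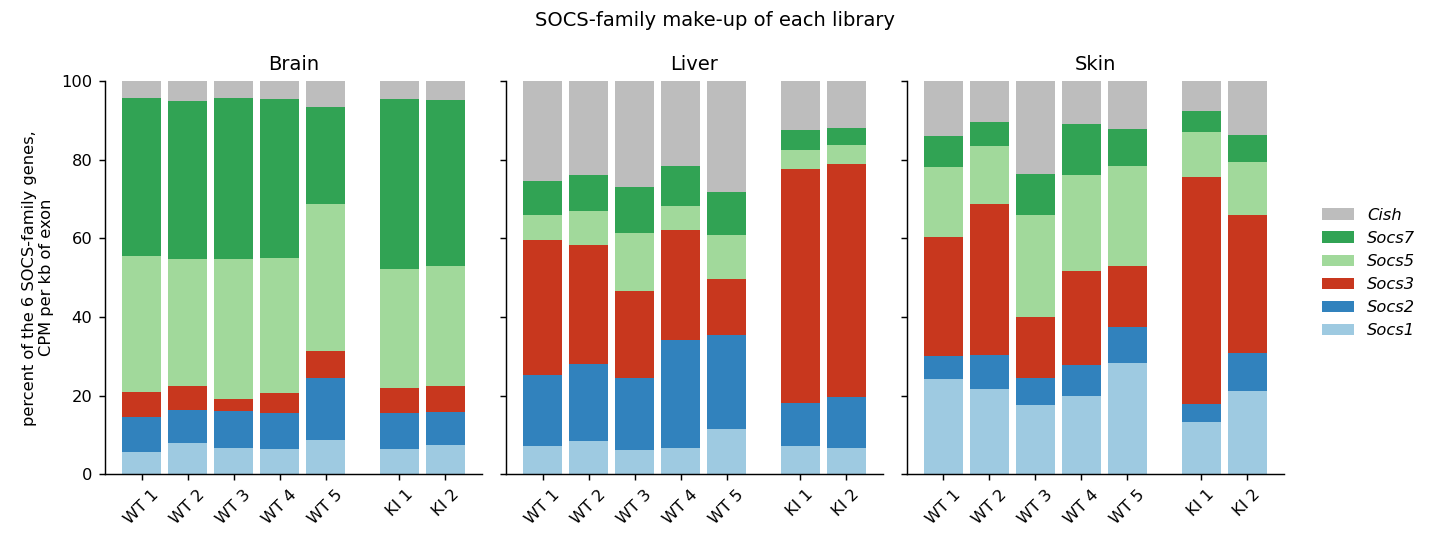
Share of each of the 6 SOCS-family genes (stacked bars, percent of their summed CPM per kb of exon) in each of the 21 libraries, WT 1 to 5 and then KI 1 and 2 in each tissue. Socs3 (red) takes 59.3 to 59.4% in the KI livers against 14.1 to 34.5% in the WT livers, and Socs5 and Socs7 (greens) take most of each brain library.

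In the skin no member was called, beside 0.0247% of 16163 genes, which is 4 genes. Unadjusted p-values under 0.05 were found for 467 genes upward and 271 downward. Together these are fewer than a cut at 0.05 passes on average when no gene differs. DESeq2 called 96 higher and 11 lower. Socs3 had the largest difference of the 10, with 111 and 49.2 CPM in KI skins 1 and 2 and 39.9, 52.8, 19.2, 23.2 and 19.5 CPM in WT skins. KI 1 lay above all other skins and KI 2 lay below WT 2, so the groups overlapped. The log2 difference was 1.38 ± 0.45 (SE, 95% interval 0.33 to 2.43, edgeR adjusted p = 0.944), falling to 0.71 without KI 1 and rising to 1.84 without KI 2.

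The skins with more Socs3 were those with more immediate early gene RNA (Fos, Jun, Atf3 and others that rise within minutes of a stimulus). The sum of 11 such genes was 2626 and 1366 CPM in KI skins, 1613 and 1755 CPM in WT skins 1 and 2, and 456 to 617 CPM in WT skins 3, 4 and 5, where Socs3 was lowest. All 11 had a positive KI minus WT difference in skin, with a median of 0.94 on the log2 scale against -0.03 over all genes, and none was called. With the log2 sum as a covariate, an analysis added after the values were seen, the Socs3 difference was 0.58 ± 0.20 in skin (SE, adjusted p = 0.994). In liver it was 2.01 ± 0.19 (edgeR adjusted p = 0.00399), and there the KI sums, 1099 and 1040 CPM, lay inside the WT range of 426 to 1755 CPM. Among WT livers too, Socs3 was lowest in WT 5, with the lowest sum (426 CPM), and highest in WT 1, with the highest (1755 CPM). The part of immediate early RNA in the Socs3 values was not tested in either tissue. With 2 KI mice, the covariate fit cannot separate it from genotype. Leukocyte marker RNA also lay higher in KI skins, at 297 and 384 CPM against 218 to 273 CPM in WT skins, with none of the 6 called, and its part was not tested.

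**Figure D5:**
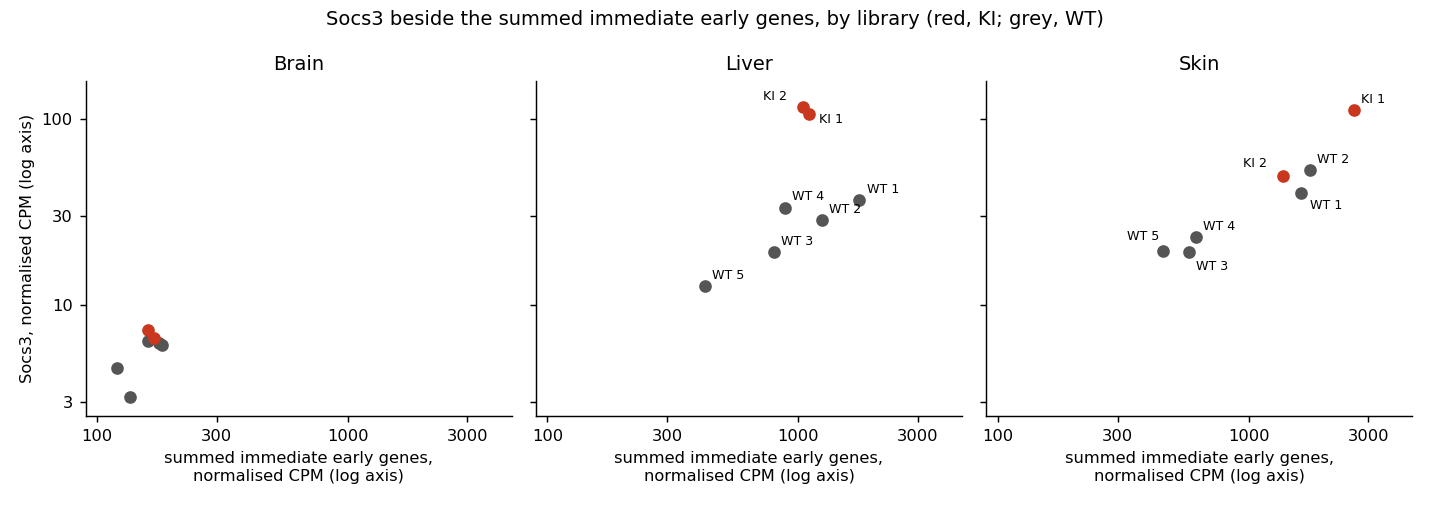
Socs3 (vertical, normalised CPM, log axis) against the summed CPM of 11 immediate early genes (horizontal, log axis) in each library of brain, liver and skin, red for KI and grey for WT. The KI livers, 106 and 116 CPM of Socs3, sit above all 5 WT livers. Among WT livers, as among the skins, the library with the lowest sum is low in Socs3 and those with higher sums mostly have more.

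Jak1 was the only member with both KI skins above all WT skins, a position held by 4.91% of the genes tested (4.84% lay below): 184 and 178 CPM in KI, and 152, 155, 170, 172 and 149 CPM in WT. The gap to the nearest WT skin was small and the difference of 0.18 on the log2 scale (95% interval -0.05 to 0.42) was not called. Jak3 read 29.5 and 45.5 CPM in KI and 16.4 to 33.8 CPM in WT skins (0.51, 95% interval -0.11 to 1.13). KI 2, the higher, was also the skin with the highest leukocyte sum, 384 CPM. That sum was 297 CPM in KI 1 and 218 to 273 CPM in WT skins. WT 3, with the lowest sum, 218 CPM, had 33.8 CPM of Jak3, above KI 1. The part of leukocytes in the Jak3 values was not tested. Jak2 read 80.4 and 60.2 CPM against 54.1 to 65.5 CPM (0.27, 95% interval -0.04 to 0.58), and Tyk2 32.8 and 37.8 CPM against 23.2 to 35.5 CPM (0.17, 95% interval -0.24 to 0.58). Socs5 read 32.8 and 29.0 CPM against 30.98 to 49.3 CPM, at the low end of WT (-0.38, 95% interval -0.86 to 0.10). Intervals of the other inhibitors all spanned 0, at 0.23 for Socs2, -0.15 for Socs7, -0.06 for Cish and -0.00 for Socs1, which was the inhibitor most abundant in skin relative to the other tissues.

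In the brain no member was called, and neither was any of the 16322 genes tested (0%), with unadjusted p-values under 0.05 for 457 upward and 1275 downward and 80 higher and 524 lower by DESeq2. Without WT 5, 672 genes were called higher and 1026 lower, and still none of the 10 members. Socs3 read 6.61 and 7.27 CPM in KI brains and 6.18, 6.04, 3.17, 4.54 and 6.35 CPM in WT brains. KI lay above all WT brains by a narrow margin, and the difference was 0.40 on the log2 scale (95% interval -0.27 to 1.07). Jak1 read 154 and 150 CPM in KI and 131, 147, 153, 132 and 93.8 CPM in WT brains, overlapping with WT 3, at 0.21 (95% interval -0.21 to 0.63) with WT 5 and 0.13 without it.

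Jak2 (74.7 and 77.4 CPM in KI, 56.4 to 69.4 CPM in WT), Jak3 (12.4 and 13.2 against 9.53 to 11.4 CPM), Tyk2 (15.9 and 13.7 against 7.73 to 13.4 CPM) and Socs7 (111 and 116 against 57.8 to 103 CPM) also lay above all WT brains. With Socs3 these were 5 of 10 members, beside 11.2% of all genes, and none lay below, beside 15.8%. Their log2 differences were 0.24, 0.26, 0.34 and 0.32, with 95% intervals that all reached below 0. Socs1 (0.12), Socs2 (-0.12), Socs5 (-0.07) and Cish (0.02) overlapped between the groups. The sum of 6 neuron markers was 5749 to 6289 CPM in KI brains and 6398 to 7385 CPM in WT brains, and that of 5 endothelial markers was 145 to 146 CPM in KI and 78.1 to 135 CPM in WT. None of these markers was called, and their part in these values was not tested.

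Whether KI differences varied between tissues was tested directly in a fit of all 21 libraries, in which the 3 contrasts share libraries. No member was called in any of them, where 2.81% (liver against brain), 0% (skin against brain) and 0.0997% (liver against skin) of 18062 genes were. For Socs3 the KI difference was larger in liver than in brain by 1.59 ± 0.61 (log2, SE, 95% interval 0.31 to 2.86), with an unadjusted p of 0.0178 and an edgeR adjusted p of 0.214. It was larger in skin than in brain by 0.91 (95% interval -0.36 to 2.18) and in liver than in skin by 0.68 (95% interval -0.57 to 1.92). A call of Socs3 in liver and not in skin or brain is therefore not a called difference between tissues. For Socs7 the KI difference was lower in liver than in brain by -0.61 (95% interval -1.20 to -0.02, adjusted p = 0.311), and for Jak1 the 3 contrasts ranged from -0.09 to 0.08. Socs7 was not called in any tissue.

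The other genes of the pathway were read from lists. The lists were chosen with earlier results of these data known, so their counts beside all genes describe these lists only. Of the STAT genes, Stat3, the STAT downstream of gp130 receptors, was called in KI liver, at 263 ± 3.63 CPM in KI and 195 ± 11.3 CPM in WT (SD; 0.43 ± 0.09 on the log2 scale, edgeR adjusted p = 0.0377). Stat4 (0.81, adjusted p = 0.105), Stat6 (0.26), Stat5b (0.18), Stat2 (0.13) and Stat5a (-0.06) were not called. Of receptor chains that signal with JAK1, 6 of 23 tested were called higher and none lower, beside 3.89% of all genes called higher, with a median of 0.56 against -0.02 over all genes. These included Il4ra, the chain shared by interleukin 4 and 13 receptors (75.0 ± 10.3 CPM in WT and 164 ± 0.64 in KI, 1.13), the common gamma chain Il2rg (0.85), Il7r (0.81) and Il13ra1 (0.78). Il2rg and Il7r are expressed mainly by leukocytes, whose marker RNA was higher in the same livers as given above for Jak3, and its part in the values of this and the following lists was not tested.

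Among receptors of JAK2, 3 of 13 were called higher in KI liver, the beta chains Csf2rb2 (2.60) and Csf2rb (1.45) and the granulocyte factor receptor Csf3r (1.20), all on the log2 scale, with a median of 0.39, again beside 3.89% of all genes. These 3 genes are expressed in myeloid cells, and the sum of 6 neutrophil markers was 8316 to 9747 CPM in KI livers and 5203 to 6818 CPM in WT livers. Csf2rb and Csf2rb2 are close copies, so reads may have been split between them. Of 11 ligands tested, Il6 was called (2.89 ± 0.65, edgeR adjusted p = 0.0525), at a low level of 2.13 ± 1.11 CPM in KI and 0.28 ± 0.20 CPM in WT. Of 15 other inhibitors of the pathway, 3 were called higher: the phosphatases Ptprc (0.70), which is also a leukocyte marker, and Ptpn1 (0.54), and Usp18 (0.44), which restrains interferon receptors. None of the 6 partners of the SOCS box was called, with a median of 0.08.

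Of 26 STAT-induced genes outside the SOCS family, 8 were called higher in KI liver, beside 3.89% of all genes, and none lower, with a median of 0.50. The largest were Timp1 (1.75), Lrg1 (1.62, 127 ± 18.6 CPM in WT and 388 ± 0.32 CPM in KI), Il4ra, which is on the receptor list too, and Hamp (1.09), the gene of the iron hormone hepcidin. In skin 2 of 25 were called higher, beside 0.0247% of all genes, Lrg1 (2.48 ± 0.27) and Cebpd (1.21 ± 0.12, both at an edgeR adjusted p of 0.0899), and no gene of the other lists was. Skin Stat3, at 179 ± 20.1 CPM in KI and 132 ± 21.02 CPM in WT, differed by 0.44 without a call. In brain no gene on any list was called. There the 6 partners of the SOCS box were all below 0, with a median of -0.45 against -0.02 over all genes. Their sum was 287 to 301 CPM in KI and 361 to 444 CPM in WT, without overlap. Of the single genes tested in brain, 15.8% lay below all WT brains.

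Finally, each member was set beside the 13660 genes that passed the filter in all 3 tissues, by the Pearson correlation of log2 CPM over the 21 libraries after tissue means were removed. These points share mice, and genotype differences were left in, so the values describe likeness only. Jak1 was most like Cds2 (0.91), Il6st, which encodes gp130 (0.91), and Vcl (0.88), and Jak2 was most like Stat3 (0.81), Tmem43 (0.79) and Prkch (0.78). Jak3 was most like Tdrd7 (0.93), Slfn5 (0.90) and Oasl2 (0.90), and Tyk2 like Gnaz (0.88), Myo7a (0.86) and H2-T24 (0.85). Socs3 was most like Lilrb4a (0.87), Fam43a (0.86) and Clec7a (0.85). Cish was most like Slc25a1 (0.93), Pfkfb1 (0.90) and Cpt2 (0.89), and Socs7 like Zbtb9, Spen and Zfp646 (0.91, 0.91 and 0.90). Socs1 was most like Guca1a (0.81), Pdia4 (0.78) and Alpk1 (0.78), Socs2 like Leng9 (0.85), Lysmd2 (0.84) and Stoml1 (0.79), and Socs5 like Crk (0.75), Zfp418 (0.73) and Pdxp (0.71). Between members the highest value was that of Jak2 with Socs3 (0.70), and the lowest was that of Socs3 with Socs5 (-0.46).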

How the data were processed

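Libraries were prepared with TruSeq RNA v2, a kit that does not mark strand, and sequenced as paired ends on a NovaSeq instrument. Per the study's methods the authors trimmed the reads and aligned them to mm9 with TopHat2. The submitters' processing notes also name TopHat, HTSeq and DESeq. The count tables the authors deposited hold 1 raw count per symbol and library, without normalization. Their lines for unassigned reads were left out: genes took 80.5% to 87.6% of the reads with a single alignment. The counting annotation, its strand setting and the tools' versions were not given in the sources used here.

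Each tissue was fitted alone (2 KI against 5 WT), WT tissues together (15 libraries), and tissue differences of the KI effect over 21 libraries, with filterByExpr, TMM and the quasi-likelihood test of edgeR 4.0.16 (R 4.3.3, limma 3.58.1), Benjamini-Hochberg adjusted over all genes and called under 0.1. Printed CPM used TMM factors within each tissue, with tissues set on 1 scale by TMM over 21 libraries. Exon lengths came from GENCODE on NCBIM37. Tables and figures used Python 3.11.15, numpy 2.4.6 and pandas 2.3.3. Steps were tested on simulated data.

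The members and gene lists were chosen with earlier results of these data known. All members are named, with the STATs, except for an item not reported here, at most 4 called genes per list and tissue, and the 3 genes most like each member. Lists were written from general knowledge. Libraries of 1 genotype and number were taken as 1 mouse across tissues, from the shared names and the Y-linked pattern. Across the 15 pairs of WT tissue libraries r ranged from -0.01 to 0.17, and blocking on the mouse changed no call of a member between tissues. Replicate libraries were compared over 33 pairs, and none were duplicates (lowest chi-square per degree of freedom 10.9). Each library is a separate mouse within a tissue. P-values measure the spread between these mice. Alternatives were DESeq2 1.42.0 size factors and Wald test, no filter, all libraries in 1 fit, replicate blocks, a Y-linked covariate, a threshold of 0.05, each mouse left out, and the longest transcript. The covariate of immediate early genes was added after seeing the data.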

Additional observations from a re-analysis of the deposited data

Results flagged for a closer look

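Within groups of 5 WT libraries, the gap of the highest or lowest library to its nearest neighbour was compared with the group's range for the 10 genes in 3 tissues, 30 groups in all, of which chance flags about 1 in 20. In 3 of them the gap exceeded Dixon's 95% value of 0.71, all in brain and all through WT 5. Tyk2 was lowest there at 7.73 CPM, Socs7 was lowest at 57.8 CPM and Socs2 was highest at 48.1 CPM. WT 5 was also the smallest of the libraries, with 26549326 counts on genes. Without it the KI minus WT differences in brain were 0.24 for Tyk2, 0.22 for Socs7 and 0.07 for Socs2, and none was called. The cause was not tested.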

How the results depend on the processing

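Of 1140 recomputed log2 differences of the members, 1056 kept their direction and their side of the threshold, 60 changed sign, all of them without a call in either fit, and 24 gained or lost a call. The report gives most of those beside the values they touch. The others are Jak3 between WT liver and skin, called at 0.42 without WT mouse 3 (adjusted p = 0.0585), Jak1 lost (adjusted p = 0.108) and Jak2 gained (adjusted p = 0.0566) between WT brain and skin by the Wald test of DESeq2, the loss of Socs5 between WT brain and skin at a threshold of 0.05, and the loss of Jak3 in liver under the replicate block, given next. The cause was not tested in any case. With 2 KI mice, intervals stay wide. Of the members, Socs3 had the largest SE of KI minus WT in each tissue. It was 0.29 in brain, 0.31 in liver and 0.45 in skin on the log2 scale. Socs1, on the fewest counts, had an SE of 0.26 in brain, liver and skin. Fits with a lone KI mouse assume that it varies like the WT mice.

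Replicate numbers of KI and WT mice share only a number: same-numbered libraries correlated from -0.08 to 0.17 after group means were removed, above 0.1 in 1 of 6 pairs. With the number as a block (replicate block), 783 genes were called higher and 1382 lower in brain, 1 member in liver (Jak3 was lost, at 0.46 and an adjusted p of 0.103) and 0 genes higher in skin; of the signs, Socs2 in brain became 0.064, Socs7 and Cish in skin 0.12 and 0.047, and Socs5 in liver against brain 0.028. Between tissues, blocking on the mouse changed no call of a member, although the counts over all genes moved.

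With all 21 libraries in 1 fit, 173 genes were called higher and 441 lower in brain, 156 and 86 in liver with 1 member, and 22 and 1 in skin, and Socs5 in brain was 0.017. DESeq2 called 80 and 524 in brain, 641 lower in liver, and 96 and 11 in skin. For differences between tissues it called 751 and 638 (liver against brain), 37 and 19 (skin against brain) and 61 and 58 (liver against skin). Under a threshold of 0.05, liver kept 1 member and 302 and 81 genes, skin 0, and the tissue differences 154 and 66 (liver against brain) and 3 lower (liver against skin). The Y-linked covariate left 1 member and 297 and 112 genes in liver, 1 gene higher in skin, and Socs5 in liver at -0.084. The covariate of immediate early genes, chosen after seeing the data, left 0 genes higher in skin, with Cish in brain at -0.011 and Socs7 and Cish in skin at 0.084 and 0.10. Socs1 in skin, at -0.00, became 0.0069 with DESeq2 size factors, 0.014 with no filter, 0.0072 with DESeq2, 0.016 with all libraries and 0.057 with the Y-linked covariate. With the longest transcript the median WT level per length rose from 7.12 to 8.74 CPM per kb.

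Leaving out each mouse in turn, 0 to 672 genes were called higher and 0 to 1026 lower in brain (the upper values without WT 5), 49 to 784 and 7 to 506 in liver (the lower values without KI 2) with 0 to 4 members, and 0 to 1 higher in skin. For liver against brain the counts were 0 to 473 and 0 to 408, and for liver against skin 1 to 18 and 0 to 14. Sign changes arose in brain for Socs1 (-0.035 to 0.28), Socs2 (-0.17 to 0.075), Socs5 (-0.12 to 0.0030) and Cish (-0.070 to 0.14), in liver for Socs2 (-0.11 to 0.26) and Socs5 (-0.068 to 0.20), and in skin for Socs1 (-0.13 to 0.15), Socs2 (-0.12 to 0.55) and Cish (-0.29 to 0.20). Between WT tissues they arose for Socs2 in brain against skin (-0.043 to 0.18) and Socs3 in liver against skin (-0.42 to 0.0058). For KI differences in liver against brain they arose for Jak1 (-0.082 to 0.061), Jak2 (-0.093 to 0.021), Socs2 (-0.13 to 0.35) and Socs5 (-0.10 to 0.12). In skin against brain they arose for Jak1 (-0.16 to 0.0022), Jak2 (-0.26 to 0.17), Jak3 (-0.14 to 0.44), Socs2 (-0.10 to 0.60) and Cish (-0.29 to 0.15), and in liver against skin for Jak2 (-0.22 to 0.27), Jak3 (-0.16 to 0.40), Socs2 (-0.34 to 0.062) and Cish (-0.38 to 0.090).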
